A study of Mus musculus with 6 samples.

Results

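Immunoglobulin gene segments were examined in neutrophils sorted from mouse peripheral blood (PB). Members were all genes of the deposited table whose transcript type names an immunoglobulin constant (C), variable (V), joining (J) or diversity (D) gene, which gave 246 of the 29097 genes listed. The heavy locus on chromosome 12 held 129 of them (7 C, 106 V, 4 J and 12 D), the kappa locus on chromosome 6 held 106 (1 C, 100 V and 5 J), and the lambda locus on chromosome 16 held 11 (4 C, 3 V and 4 J). The study placed silk ligatures around molars for 14 d to induce periodontitis (ligature-induced periodontitis, LIP, labeled Lig) and left control mice (Ctrl) unligated for the same time. Mice were wild type C57BL/6 males, 8 weeks old in both groups. Each group had 3 Smart-seq2 libraries, each a pool of CD45+CD11b+Ly6G+ cells from 5 mice, so the spread between libraries is a spread between pools and not between animals. Library totals lay between 52186555 and 57262379 estimated counts, and counts below are estimated counts per gene that the authors rounded up to whole numbers.

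An antibody is made of heavy chains and light chains, the latter of kappa or lambda type. Its genes are assembled in developing B cells by joining a V to a J segment, with a D segment between them in heavy chains, and the joined exon is then spliced to a constant gene. The heavy constant gene sets the isotype: Ighm and Ighd encode IgM and IgD, which mature naive B cells carry together on their surface, and class switching replaces them with Ighg genes for IgG or with Igha for IgA. In blood, B cells and antibody-secreting cells are the usual source of these transcripts.

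The J segments are shown because their share of use within a locus is described further on and ranges widely between members. All 246 members had a sequence in GENCODE M21 (GRCm38), from which those below were taken, written 5′ to 3′. The kappa J segments lie on the plus strand of chromosome 6 between 70722562 and 70723927. Capitals mark TTCGG, letters that encode the start of the phenylalanine-glycine motif of light chain J segments, searched on the coding strand only.
Igkj1: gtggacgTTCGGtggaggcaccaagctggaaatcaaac
Igkj2: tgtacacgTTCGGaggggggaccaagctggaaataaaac
Igkj3: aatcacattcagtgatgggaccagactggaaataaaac
Igkj4: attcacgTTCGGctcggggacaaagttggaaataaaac
Igkj5: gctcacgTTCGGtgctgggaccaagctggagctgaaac
The letters were found in 4 of the 5 kappa J members, Igkj3 being the other, and in 3 of the 4 lambda J members, which lie on the minus strand of chromosome 16. A pair of lambda members, one with and one without it, is shown.
Iglj3: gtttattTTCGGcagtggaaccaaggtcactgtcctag
Iglj3p: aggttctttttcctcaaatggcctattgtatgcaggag
In the 4 heavy J members, on the minus strand of chromosome 12 between 113428514 and 113429833, capitals mark TGGGG, which begins the tryptophan-glycine motif and was found in 4 of 4.
Ighj1: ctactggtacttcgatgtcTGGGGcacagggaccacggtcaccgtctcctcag
Ighj2: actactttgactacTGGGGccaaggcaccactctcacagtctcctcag
Ighj3: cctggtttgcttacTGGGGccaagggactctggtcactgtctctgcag
Ighj4: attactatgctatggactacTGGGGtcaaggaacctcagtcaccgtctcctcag

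The labeled cell type was checked first. The 9 neutrophil markers were all higher in LIP (median log2 fold change 1.95), with a summed FPKM (fragments scaled to transcript length and library size) of 15872 to 19403 in Ctrl and 55645 to 60047 in LIP, led by S100a9, S100a8 and Il1b. B cell markers were also present: the 10 listed summed to an FPKM of 8927 to 9789 in Ctrl and 1466 to 1488 in LIP, and all 10 were lower in LIP (median log2 fold change -2.45). Cd74, the MHC class II invariant chain, changed by -2.27, and Cd79a and Cd79b, the signaling partners of membrane immunoglobulin, by -2.63 and -2.61. All 8 T cell markers (median -2.50) and all 7 erythroid markers (median -3.01) were lower as well, and all 5 platelet (median 1.25) and 5 monocyte markers (median 1.14) were higher. The part of these shifts in the results below was not tested, and in bulk libraries fewer B-lineage cells and less immunoglobulin RNA per cell cannot be told apart.

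Immunoglobulin transcripts took 0.989%, 1.14% and 1.07% of all counts in the 3 Ctrl libraries and 0.156%, 0.171% and 0.170% in the 3 LIP libraries. The share was thus 6.44-fold lower in LIP, with no overlap between groups. The heavy locus fell from 0.477% ± 0.0140 to 0.0830% ± 0.00378 of counts (SD, n = 3), the kappa locus from 0.474% ± 0.0517 to 0.0658% ± 0.00369, and the lambda locus from 0.114% ± 0.0121 to 0.0167% ± 0.00105. These are falls of 5.75-fold, 7.20-fold and 6.87-fold, given as a description because a sum over the members gets no test.

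Of the 246 members, 211 reached an average FPKM of 1 across the 6 libraries and were tested (edgeR's quasi-likelihood test with Benjamini-Hochberg adjustment over 10440 genes). By the Ctrl mean alone 221 would have passed and by the LIP mean alone 158, so many members entered through the Ctrl libraries. In LIP 193 were lower, 1 was higher and 17 did not pass the adjusted p threshold of 0.05. Of all genes tested, 27.2% were lower and 26.5% higher. The groups did not overlap, with every LIP library below every Ctrl library, in 200 of the 211 members and in 33.1% of all genes tested. The median log2 fold change of the members was -2.61, beside -0.09 over all genes. By locus, 89 of 100 heavy, 93 of 100 kappa and 11 of 11 lambda members were lower, with medians of -2.71, -2.56 and -2.58. By kind, 171 of 184 V, 13 of 13 J, 8 of 11 C and 1 of 3 D members were lower. The 35 members not tested had mean counts of 0 to 175 in Ctrl and 0 to 68.7 in LIP. T cell receptor segments, the other genes assembled in this way, gave 42 lower of 60 tested, with a median of -2.41, and 27 and 18 lower under DESeq2 and with no filter.

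**Figure D1:**
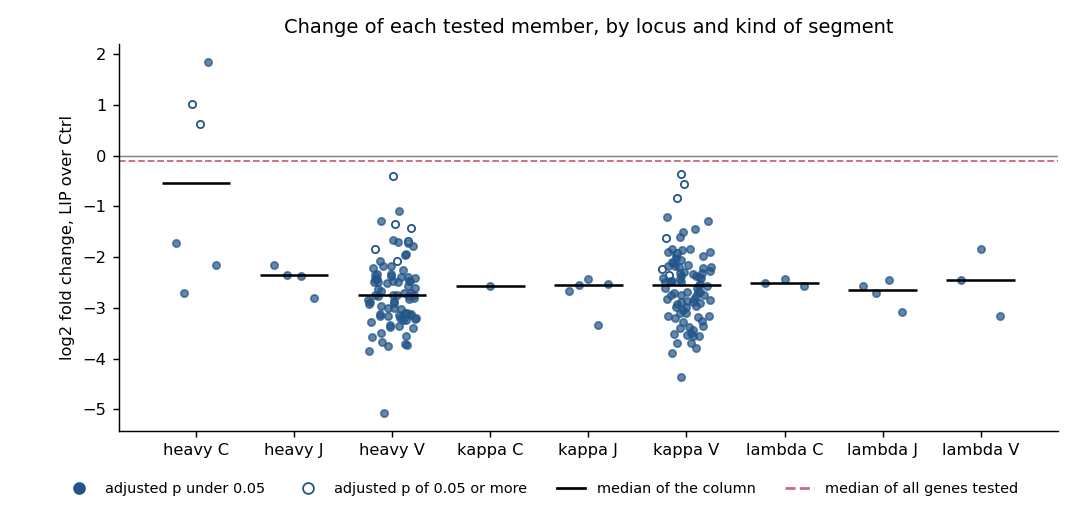
Log2 fold change, LIP over Ctrl, of tested members (circles) by locus and kind of segment, filled where the adjusted p was under 0.05, with the median of each column (black) and of all genes tested (dashed). Heavy V, kappa V and the light chain constants lie around -2.5, while 3 heavy constants lie above 0; D members and the 5 tested members at 0 in every LIP library are not drawn.

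Of the 11 tested constant genes, 8 fell, beside 27.2% of all genes tested, and the 3 tested Ighg genes were not among the 8. Ighm had 158272, 175223 and 162259 counts in Ctrl and 29754, 32935 and 30010 in LIP. Its log2 fold change was -2.15 ± 0.08 (SE; edgeR adjusted p = 5.31e-08), and the groups were far apart. Ighd had 36073, 33627 and 35930 counts against 4692, 4356 and 4318, a log2 fold change of -2.72 ± 0.10 (edgeR adjusted p = 5.31e-08). Igha, the IgA gene, had 11378, 13989 and 12852 counts against 2735, 4104 and 2881, and its change of -1.71 ± 0.16 (edgeR adjusted p = 9.87e-06) was the smallest of the constants that fell. The second LIP library was the highest of its group for Igha. Per length, the FPKM in Ctrl was 1518 ± 56.5 for Ighm, 321 ± 18.5 for Ighd and 82.7 ± 7.53 for Igha (SD, n = 3), and in LIP 276 ± 13.9, 39.5 ± 1.70 and 20.4 ± 4.30, in the same order.

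The light chain constants fell by amounts close to each other. Igkc, the single kappa constant gene, was the most abundant member per length, with an FPKM of 4660 ± 531 in Ctrl and 638 ± 34.4 in LIP. It had 127072, 163749 and 138742 counts in Ctrl against 19368, 21664 and 19461 in LIP, a log2 fold change of -2.56 ± 0.11 (edgeR adjusted p = 8.5e-08). Of the lambda constants, Iglc2 fell by 2.42, Iglc3 by 2.58 and Iglc1 by 2.50 on the log2 scale, each with SE of 0.12 to 0.16. Iglc2 had an FPKM of 688 ± 74.2 in Ctrl, above Iglc3 (501 ± 50.3) and Iglc1 (300 ± 30.0). Iglc2 and Iglc3 are 94.3% identical over their transcripts, so the split of reads between them is uncertain. Iglc4 had 61, 47 and 25 counts in Ctrl and 0 in each LIP library, at least 36.9-fold lower, where the LIP group is set to the 3 counts that a count of 0 allows. It passed the FPKM limit only through the Ctrl libraries.

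**Figure D2:**
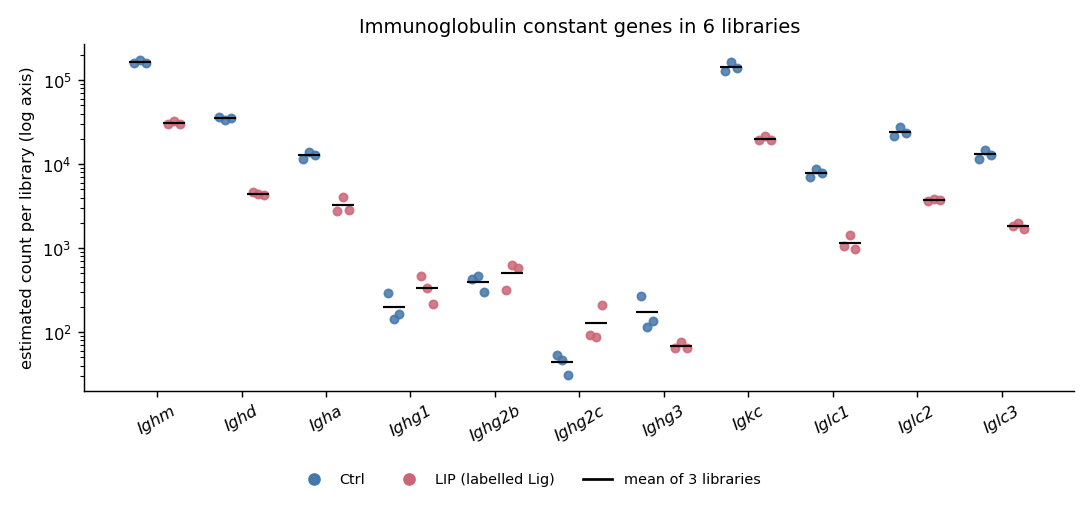
Estimated count of each immunoglobulin constant gene in each library (points, log axis; bars are means of 3). All 3 LIP points lie well below the Ctrl points for Ighm, Ighd, Igha and the light chain genes, and above them for Ighg2c; Iglc4, at 0 in LIP, is not drawn.

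The IgG genes were scarce, with a mean FPKM in Ctrl between 0.565 (Ighg2c) and 2.56 (Ighg2b). Ighg2c had 54, 46 and 31 counts in Ctrl and 92, 88 and 209 in LIP, with the third LIP library above the other 2. It was the only member called higher, with a log2 fold change of 1.86 ± 0.52 (edgeR adjusted p = 0.0121). Its mean FPKM reached 1 in LIP but not in Ctrl. It thus passed the FPKM limit only through the LIP libraries, where it is high, so a rise was favored by the filter. The call was lost without the third Ctrl library (adjusted p = 0.0537) and where all listed genes were tested with no filter (adjusted p = 0.109), and without the third LIP library the value was 1.28 (adjusted p = 0.0498). Ighg1 had 291, 143 and 164 counts against 462, 333 and 216. The groups overlapped, and its log2 fold change of 1.02 ± 0.41 missed the threshold (edgeR adjusted p = 0.0578), which it passed under DESeq2 (adjusted p = 0.0332). Ighg2b had 426, 467 and 300 counts against 321, 625 and 586, again with overlap (0.63 ± 0.34, edgeR adjusted p = 0.139; without the first LIP library, 0.89 and 0.0293). Ighg3, with 272, 116 and 136 counts against 65, 77 and 64, lay below the FPKM limit and was not tested. The counts of the 4 Ighg genes summed to 631 to 1043 in Ctrl and 940 to 1123 in LIP, which overlap. When libraries were scaled on the neutrophil markers, which moves the median of all genes to -2.07, Ighg2c, Ighg1 and Ighg2b were at -0.12, -0.96 and -1.36, all above that median. The Ighg genes are related copies, and how reads shared among them were assigned is not given in the sources used here.

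Ratios within a library do not depend on its scaling. Ighd stood at 22.8%, 19.2% and 22.1% of the Ighm count in Ctrl and at 15.8%, 13.2% and 14.4% in LIP. The groups did not overlap, and a two-sided exact permutation test gave p = 0.1, the smallest that 3 libraries a group allow. The other ratios to Ighm were looked at after the values were seen and are given as a description. The same permutation test gave p = 0.1 for each of these as well. Igha rose from 7.70% ± 0.442 to 10.4% ± 1.78 of the Ighm count, Ighg1 from 0.122% ± 0.0543 to 1.09% ± 0.423, Ighg2b from 0.240% ± 0.0479 to 1.64% ± 0.489 and Ighg2c from 0.0265% ± 0.00751 to 0.424% ± 0.237 (SD, n = 3). For each of them every LIP library lay above every Ctrl library. Ighm itself fell (log2 fold change -2.15), so any gene that fell less or rose has a higher ratio. The counts of Igha fell, and those of Ighg1 and Ighg2b overlapped between groups. Igkc moved the other way, from 86.4% ± 6.63 to 65.2% ± 0.482 of the Ighm count. As shares of all heavy constant counts, Ighm made up 77.2% ± 1.02 in Ctrl and 78.0% ± 0.469 in LIP, within the spread, Ighd 16.5% ± 1.28 and 11.3% ± 1.03, Igha 5.94% ± 0.393 and 8.12% ± 1.34, and the 4 Ighg genes together 0.383% ± 0.108 and 2.64% ± 0.171.

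**Figure D3:**
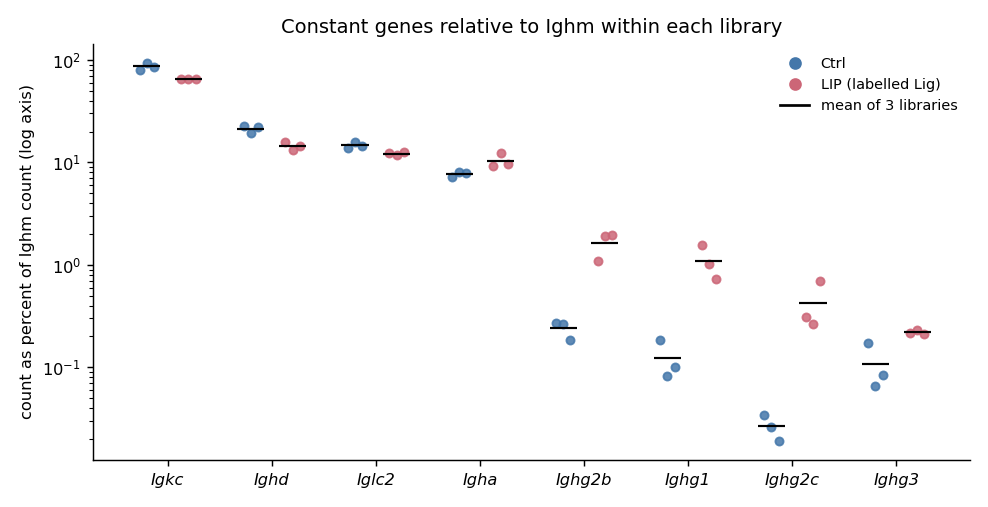
Count of each constant gene as a percentage of the Ighm count in the same library (points, log axis; bars are means of 3). Ighd and the light chain genes sit lower in LIP than in Ctrl, and Igha and the Ighg genes sit higher, with no overlap between groups in any of the 8 genes. Ighm itself fell in LIP, so genes that fell less sit higher.

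Between loci, the light chain to heavy chain ratio of counts was 1.14, 1.34 and 1.21 in Ctrl and 0.979, 1.00 and 0.998 in LIP, without overlap. The kappa to lambda ratio was 4.16, 4.18 and 4.07 against 3.96, 3.85 and 4.04. These groups did not overlap either, although their closest libraries lay near each other. V segments carried 0.383 ± 0.00651 counts per constant count in Ctrl and 0.352 ± 0.00527 in LIP. The direction was not the same in every locus, which was not tested. The V to C ratio went from 0.179 ± 0.00528 to 0.151 ± 0.00676 in the heavy locus, from 0.719 ± 0.0109 to 0.761 ± 0.0168 in the kappa locus, and from 0.297 ± 0.00645 to 0.315 ± 0.0238 in the lambda locus, where groups overlapped. With FPKM in place of counts, the log2 change of the V to C ratio over all loci was -0.01 instead of -0.12.

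All 13 J members were lower in LIP, beside 27.2% of all genes tested, with log2 fold changes from -2.15 (Ighj1) to -3.34 (Igkj4). By the LIP mean FPKM alone, 12 of the 13 would have passed the FPKM limit. J segments span 38 to 100 bases in the deposited coordinates, and their counts ranged from 0 in a LIP library (Iglj3p) to 3037 in a Ctrl library (Igkj1). Igkj3, the kappa J printed above without capitals, had 33, 29 and 43 counts in Ctrl and 3, 8 and 5 in LIP. It held 0.553% ± 0.145 of kappa J FPKM in Ctrl and 0.556% ± 0.259 in LIP, whereas Igkj1 held 43.1% ± 1.00 and 43.7% ± 3.89. Iglj3p, the lambda J without capitals, had 15, 24 and 15 counts against 0, 4 and 1, while Iglj3 had 1178, 1417 and 1268 against 196, 206 and 188. Under DESeq2 the falls of Igkj3 and Iglj3p were not called (adjusted p = 0.110 and 0.185).

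Among the kappa J members, Igkj4 varied most between the LIP libraries, with 126, 65 and 17 counts beside 730, 986 and 792 in Ctrl. Its share of kappa J FPKM was 13.1% to 13.8% in Ctrl and 15.5%, 7.75% and 2.09% in LIP, so the groups overlapped. In the heavy locus, Ighj4 held 39.9%, 40.6% and 37.4% of J FPKM in Ctrl and 31.9%, 29.2% and 32.4% in LIP. Ighj1 held 20.2%, 19.5% and 22.9% against 23.8%, 29.2% and 25.5%, also without overlap, while Ighj2 and Ighj3 overlapped. Ighj2 spans 100 bases in the deposited coordinates but 48 in the sequence printed above, and the longer span lowers its FPKM. In the first Ctrl library its 441 counts gave an FPKM of 76.8, whereas 415 counts of Ighj3 gave 150. The level of each heavy J share depends on this length. The 5 kappa J members lie inside the longer gene Gm30211, and 4 of them have fewer counts than it.

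**Figure D4:**
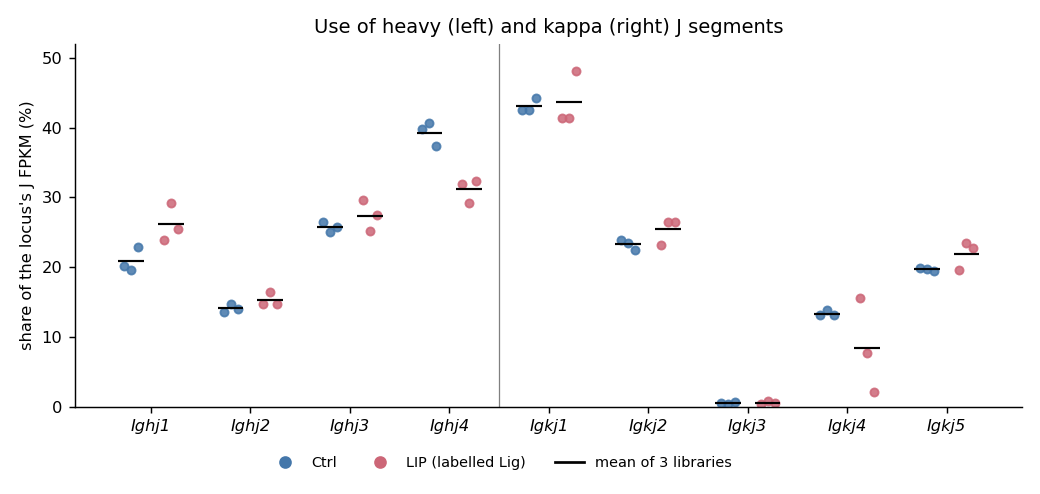
Share of each J member in the J FPKM of its locus, per library (points; bars are means of 3), for the heavy locus on the left and the kappa locus on the right. Ighj4 sits lower and Ighj1 higher in LIP, Igkj3 is near 0 in every library, and Igkj4 is spread from 2.09% to 15.5% in LIP. The FPKM of Ighj2 rests on a longer span (100 bases) than that of the other heavy J members, which lowers its share.

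The 12 D members had 0 to 14 counts in any library and only 3 could be tested. No D member reached a mean FPKM of 1 in LIP, so these 3 passed the FPKM limit only through the Ctrl libraries. A lower LIP value was thus set in advance by the filter. Ighd1-1, a D segment and not the IgD gene Ighd, is printed as the one with the most counts.
Ighd1-1: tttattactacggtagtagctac
It lies on the minus strand of chromosome 12 at chr12:113482170-113482192. It had 9, 14 and 14 counts in Ctrl and 1 in each LIP library, a log2 fold change of -3.22 ± 0.73 (edgeR adjusted p = 0.00391), which was not called under DESeq2 (adjusted p = 0.196) or with no filter (adjusted p = 0.279). Ighd4-1, with 6, 6 and 4 counts against 1, 2 and 1, did not pass (edgeR adjusted p = 0.0927), nor did Ighd2-4 (edgeR adjusted p = 0.490).

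V segments encode most of the antigen-binding domain. All 184 tested had a log2 fold change below 0, and 171 were called lower at an adjusted p under 0.05, beside 27.2% of all genes tested. In the kappa locus the most abundant per length was Igkv6-15, with 5322, 6448 and 5275 counts in Ctrl and 650, 921 and 541 in LIP (-2.75 ± 0.19, edgeR adjusted p = 1.48e-06). Igkv10-96, Igkv6-23, Igkv1-135 and Igkv1-117 followed, with changes of -2.83, -2.88, -2.47 and -2.50. In the heavy locus Ighv1-26 led, with 1579, 1848 and 2081 counts against 232, 191 and 150 (-3.01 ± 0.25, edgeR adjusted p = 4.29e-06). Ighv9-3 and Ighv5-4 changed by -2.49 and -2.42. Of the lambda V members, Iglv1 was the most abundant with 7838, 9706 and 9042 counts against 1183, 1614 and 1248 (-2.45 ± 0.15), and Iglv3 fell by 3.16 and Iglv2 by 1.84 on the log2 scale. The largest falls were in Igkv3-3, Ighv15-2 and Ighv1-49, scarce members with 62, 117 and 42, with 79, 87 and 20, and with 53, 39 and 47 counts in Ctrl and 0 in every LIP library. They were at least 61.3-fold, 51.6-fold and 38.5-fold lower. With 0 counts in LIP they passed the FPKM limit only through the Ctrl libraries, so a large fall was set in advance by the filter.

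A few V members fell much less than the rest of their locus. Ighv10-3 had 559, 501 and 558 counts in Ctrl and 472, 317 and 235 in LIP, a log2 fold change of -0.40 ± 0.32 that was not called (edgeR adjusted p = 0.306), and its groups overlapped after scaling. Ighv1-81 had 972, 1123 and 1335 counts against 355, 509 and 470 (-1.10 ± 0.25, edgeR adjusted p = 0.0044), and Ighv1-64 had 1241, 1482 and 1494 against 435, 397 and 590 (-1.29 ± 0.25, edgeR adjusted p = 0.00142). In the kappa locus, Igkv1-88 had 229, 309 and 238 counts against 165, 162 and 175 (-0.36 ± 0.35, edgeR adjusted p = 0.399) and Igkv3-1 had 256, 422 and 216 against 238, 164 and 104 (-0.56 ± 0.42, edgeR adjusted p = 0.281). Igkv8-21 and Igkv4-50 were chosen after their values were seen. Igkv8-21 had 1267, 1563 and 1443 against 456, 529 and 465 (-1.29 ± 0.21), and Igkv4-50 had 451, 687 and 505 against 160, 176 and 249 (-1.21 ± 0.34). The other V members that were not called had fewer counts in Ctrl.

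As shares of the V counts of their locus, Ighv10-3 went from 1.55%, 1.27% and 1.43% to 7.86%, 5.18% and 4.07%, rising from rank 28 to rank 3 of the heavy V members. Ighv1-64 went from 3.43%, 3.77% and 3.82% to 7.24%, 6.48% and 10.2%, and Ighv1-81 from 2.69%, 2.85% and 3.42% to 5.91%, 8.31% and 8.15%. Together these 3 held 8.08% ± 0.527 of heavy V counts in Ctrl and 21.1% ± 1.25 in LIP. These 3 were grouped after the values were seen, as the heavy V members whose share rose most. The higher shares in all 3 LIP libraries are therefore only a description, since the same libraries were used to pick them. In the kappa locus Igkv8-21 went from 1.39% ± 0.0520 to 3.15% ± 0.0936, Igkv4-50 from 0.529% ± 0.0565 to 1.27% ± 0.317, Igkv1-88 from 0.251% ± 0.0144 to 1.09% ± 0.0864 and Igkv3-1 from 0.286% ± 0.0743 to 1.11% ± 0.484.

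**Figure D5:**
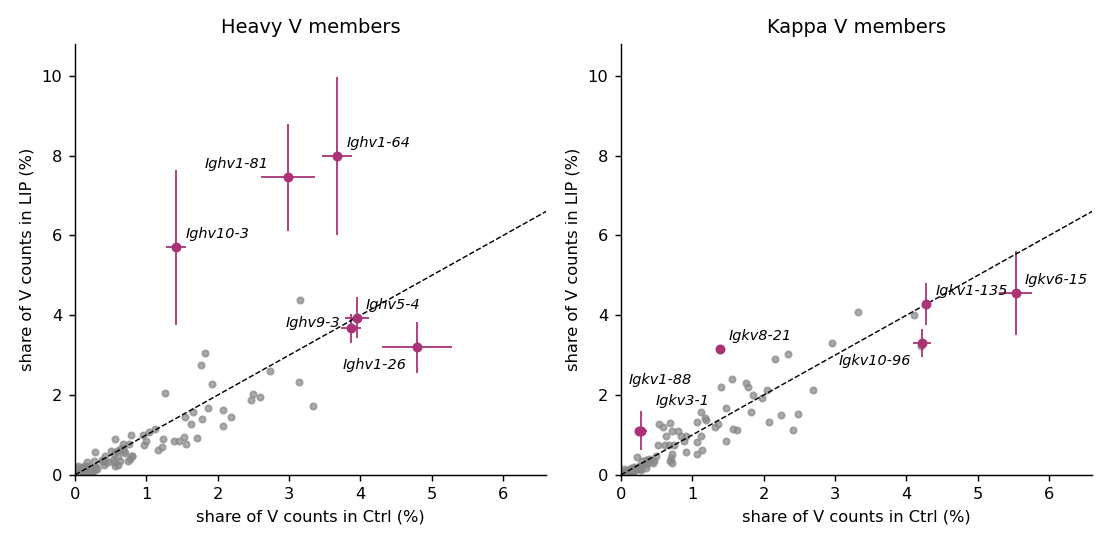
Mean share of each V member in the V counts of its locus, Ctrl on the x axis and LIP on the y axis, for heavy (left) and kappa (right); named members carry SD bars over 3 libraries and the dashed line marks equal shares. Ighv10-3, Ighv1-64 and Ighv1-81 stand above the line at 5.70%, 7.98% and 7.46% in LIP, and Ighv1-26 below it.

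The 3 heavy V members are given here by the last 240 bases of their annotated transcripts, the stretch that ends at the junction with the D segment. Capitals mark bases that differ from the closest other heavy V member, since near-identical members may share reads. They lie on the minus strand at chr12:114523441-114523905 (Ighv10-3), chr12:115507545-115508031 (Ighv1-64) and chr12:115920279-115920712 (Ighv1-81).
Ighv10-3: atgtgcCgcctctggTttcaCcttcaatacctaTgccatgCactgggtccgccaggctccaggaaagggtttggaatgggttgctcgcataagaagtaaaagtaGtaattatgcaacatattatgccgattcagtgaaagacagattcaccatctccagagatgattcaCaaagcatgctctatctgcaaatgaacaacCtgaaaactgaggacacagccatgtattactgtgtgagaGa
Ighv1-64: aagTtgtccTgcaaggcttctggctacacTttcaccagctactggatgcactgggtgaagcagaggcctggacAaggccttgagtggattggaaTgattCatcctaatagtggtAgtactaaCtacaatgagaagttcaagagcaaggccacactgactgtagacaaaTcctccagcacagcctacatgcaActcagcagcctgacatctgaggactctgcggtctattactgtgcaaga
Ighv1-81: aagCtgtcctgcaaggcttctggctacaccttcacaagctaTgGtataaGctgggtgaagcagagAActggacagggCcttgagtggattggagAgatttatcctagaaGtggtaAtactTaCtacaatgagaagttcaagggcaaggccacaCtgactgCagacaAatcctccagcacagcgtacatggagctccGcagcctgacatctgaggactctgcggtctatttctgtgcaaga
The closest members were Ighv10-1 (92.3% identical over the transcript), Ighv1-62-3 (95.1%) and Ighv1-85 (92.9%). Identity was taken over the whole of the longer transcript, so unequal annotated ends count as differences and lower it. Ighv10-3 has 377 bases and Ighv10-1 has 359, and this gap is part of their 29 differences. Members may therefore be more alike over their shared stretch than these values and those below show. Over all 106 heavy V members the identity to the closest other one had a median of 92.0%, with 27 at 95% or more, and over the 100 kappa V members a median of 91.5%, with 20 at 95% or more. The split of reads among such members is uncertain.

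Heavy V counts were spread less evenly over the members in LIP. At least 50% of the heavy V counts were held by 18, 18 and 17 members in Ctrl and by 12 in each LIP library, and the inverse Simpson number, the effective number of equally used members, fell from 47.9 ± 1.09 to 31.8 ± 2.41. Kappa V use did not shift in this way, with 17 members in each Ctrl library and 17, 15 and 17 in LIP, and inverse Simpson numbers of 44.9 ± 0.167 and 44.3 ± 2.58. Heavy V counts summed to 36170, 39355 and 39067 in Ctrl and 6006, 6124 and 5768 in LIP. How far fewer counts and a wider spread between libraries alone change these numbers was not tested. Without Ighv10-3, Ighv1-64 and Ighv1-81, left out after the values were seen, the heavy numbers were 17 in each Ctrl library and 14, 15 and 15 in LIP, with inverse Simpson numbers of 45.8 ± 0.888 and 39.4 ± 1.55. The groups then still did not overlap.

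Position along the heavy locus moved with this. The 36 V members farthest from the J segments held 38.6%, 39.0% and 39.4% of heavy V counts in Ctrl and 46.2%, 46.2% and 47.3% in LIP, and the 35 nearest held 27.5% ± 0.573 and 21.5% ± 1.60. Without the same 3 members, of which Ighv1-64 and Ighv1-81 belong to the farthest group, that group held 35.2% ± 0.0600 and 39.5% ± 2.29. In the kappa locus the groups overlapped at all 3 distances. By family, Ighv5 went from 13.2% ± 0.476 to 10.2% ± 1.13 of heavy V counts. Of the kappa families, Igkv8 went from 7.84% ± 0.207 to 10.5% ± 0.736, Igkv6 from 17.4% ± 0.481 to 15.1% ± 1.32 and Igkv12 from 7.50% ± 0.126 to 6.07% ± 0.452, and the other 8 of 12 families with at least 5 members overlapped.

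The precision of V values followed their depth. In the 62 tested V members with the highest mean counts (444 to 5105) the median coefficient of variation between libraries was 11.3% in Ctrl and 22.2% in LIP. All 62 were called lower, beside 27.2% of all genes tested. In the 61 with the lowest (22.3 to 144) it was 25.7% and 86.8%, and 51 of 61 were called lower. The others of the 61 were lower too but did not pass the threshold. Of all V members, 190 reached a mean FPKM of 1 by the Ctrl libraries alone and 136 by the LIP libraries alone. Scarce V members thus often entered through Ctrl, and for those a lower LIP value was set in advance by the filter.

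Genes that act on or beside the segments were counted by list. Of 23 B cell receptor and signaling genes, 11 were lower and 8 higher, beside 27.2% lower and 26.5% higher over all genes tested. The 3 most abundant were Cd79a, Cd79b, both given above, and Ptpn6, a phosphatase of several blood lineages (0.51). Of 11 tested regulators of immunoglobulin transcription, 8 were lower and 1 was higher. The coactivator Pou2af1 changed by -2.59 and the factor Irf8 by -1.15, while Spi1, the myeloid and B cell factor PU.1, was the one that rose (1.53). Of the 6 plasma cell genes tested, Mzb1, Jchain and Sdc1 were lower (-2.20, -1.85 and -3.42), Xbp1, a secretory stress factor of many cell types, was higher (1.33), and Prdm1 and Irf4 did not pass. The pro-B and pre-B list had 1 tested gene, Vpreb3, which fell by 2.98 on the log2 scale, while the recombinase gene Rag1 had 0, 22 and 0 counts in Ctrl and 0 in LIP. Of the recombination and switching genes 2 were tested, with Dclre1c higher (1.23) and Xrcc4 at -0.24.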

How the data were processed

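The 6 libraries (n = 3 per group) were grouped by their labels. The authors deposited an estimated count, rounded up to a whole number, and an FPKM per gene on GRCm38. Cutadapt 1.9 and FastQC appear in the submitters' processing notes, whereas the aligner, the counting tool and the use of strand are not given in the sources used here. The counts had been taken to be read counts when the test was chosen, but in 87.5% to 92.8% of single-transcript genes under 20 counts the value equals FPKM times length times a library constant, rounded up. How reads shared by similar segments were split could shift values between members. Between libraries of one group, chi-square per gene was 31.7 to 61, so no library was a copy of another.

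Genes whose FPKM averaged 1 or more across the 6 libraries entered edgeR 4.0.16 (R 4.3.3) with TMM normalization (factors 1.10 to 1.14 in Ctrl and 0.889 to 0.905 in LIP), and SE was obtained as the size of the log2 fold change over the square root of F. DESeq2 1.42.0, limma 3.58.1, other scalings and filters, a replicate block and leaving out each library were alternatives. On data simulated for this comparison over 10440 genes, edgeR recovered 46% of genes changed by 1 and 100% of those changed by 2 on the log2 scale, with 4.58% false calls. The simulation changed 200 genes, far fewer than were called in the data, and gave every gene the same dispersion. These rates may therefore not hold for the members, least of all those with low counts. P-values measure the spread between pools. Overlap with another listed gene affects 15 members, 7 of them with a gene that has more counts. Named members were all C, the J and D with a count, the 5 most abundant V of the heavy and kappa loci, all lambda V, the 3 largest and 3 smallest V falls, members that rose, and the most abundant genes of each list. Members and lists were chosen with earlier results of these data known.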

Additional observations from a re-analysis of the deposited data

How the results depend on the processing

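The number of members lower in LIP stayed between 153 and 209 under every alternative run, beside 193. The number of members higher, 1 (Ighg2c), was 2 under DESeq2, median-of-ratios size factors and the replicate block, and 0 under scaling on neutrophil markers, with no filter, with filterByExpr and with a mean FPKM of at least 5, which leaves Ighg2c untested; leaving out one library gave 0 to 2. Scaling on neutrophil markers reversed Ighg2c (-0.12), Ighg2b (-1.36) and Ighg1 (-0.96), and scaling by library totals moved the median of all genes to -0.42. T cell receptor segments lower numbered 27 under DESeq2 and 18 with no filter, beside 42. With FPKM in place of counts, the log2 change of the immunoglobulin share was -2.46 (main value -2.69) and that of the V to C ratio -0.012 (main value -0.12). Without Ighv10-3, Ighv1-64 and Ighv1-81, a choice made after seeing the data, the log2 change in the number of heavy V members holding 50% of the counts was -0.21 in place of -0.56. The cause of these differences was not tested. The same-numbered libraries were not treated as paired. Their deviations correlated at -0.0083, 0.0444 and 0.021, and the replicate block gave 195 lower members. The labels do not state a pairing, and 3 libraries per group cannot show its absence. The call of Ighg1 (adjusted p = 0.0495) was the only change of call under the block among the named members. The calls of Igkj3, Iglj2 and Iglj3p were lost with no filter and with filterByExpr, at adjusted p of 0.0884 to 0.313. The floor of 3 counts covers counting error only, whereas SE and SD values cover the spread between pools.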

Other observations

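V segments annotated as pseudogenes, 46 genes outside the members, had 1057, 1309 and 1256 counts in the Ctrl libraries and 272, 176 and 253 in the LIP libraries, which is 0.71% to 1.21% of the counts of V members.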
